A study of Mus musculus with 12 samples.

Results

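Stat3 binding to chromatin in LIF-stimulated mouse embryonic fibroblasts (MEFs) was compared with that in unstimulated (basal) MEFs, as 2 lists of ChIP-seq peak summits. A LIF summit was called gained if no basal summit lay within 200 bp and kept otherwise, and a basal summit with no LIF summit within 200 bp was called lost. The LIF list held 1088 summits and the basal list 230, so that the comparison covers 1318 of the 2136 summits in the 5 lists of the series. Of these, 1085 LIF summits were gained, 3 loci were kept, and 227 basal summits were lost.

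In ChIP-seq, DNA cross-linked to a protein is precipitated with an antibody, here against Stat3, and sequenced, and positions where reads pile up are called as peaks. Both conditions used -/-WT MEFs, a polyclonal line made from immortalised Stat3 fl/fl MEFs by Cre-mediated deletion of Stat3 and retroviral re-expression of wild-type Stat3 from an MSCV vector that also encodes GFP, so that Stat3 was expressed from the vector. Cells were kept overnight in low serum and then either left untreated or given LIF at 10 ng/ml for 45 min. There were 2 ChIP replicates of each of the 2 conditions, which the authors pooled before peak calling, and no value below has a replicate error. The study states that more unique reads were obtained from the LIF libraries than from the others, so the effects of LIF and of sequencing depth on the number of peaks cannot be told apart. The lists hold no read depth and no expression values, so that the cell type could not be checked against its marker genes. The peak numbers show that the deposited summits are a selection: numbers run to 503 in the basal list and to 1124 in the LIF list, with 273 and 36 numbers absent. "Gained" therefore means that no basal summit was retained at a locus, not that Stat3 was absent from it. In the same way, "lost" means that no LIF summit was retained at a locus, not that Stat3 had left it. The study proposes that intergenic peaks of unstimulated cells are more likely background noise than distal regulatory sites, which was not tested here.

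LIF is a cytokine of the IL-6 family that binds a receptor containing the shared chain gp130. Jak kinases bound to the receptor phosphorylate Stat3 on a tyrosine, and Stat3 dimers then enter the nucleus in larger amounts and bind the palindromic SIE, TTCCNGGAA. Among the genes that Stat3 is known to activate is Socs3, whose product inhibits the receptor complex. AP-1, a dimer of Jun and Fos family proteins that binds TGANTCA, is known to act together with Stat3 at some promoters and enhancers.

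The sequences at the kept loci are shown first, since these were the only places where both lists had a summit. They are given 5′ to 3′ on the plus strand of GRCm38 (mm10), with the LIF summit at position 61 of 121 bases. Capitals mark the SIE-like site with the fewest mismatches to TTCCNGGAA (at most 1) and any AP-1 site. As the Osmr summit lies beside an annotated UTR, only its site is shown, with 10 bases on either side.
Stat3, chr11:100939731-100939851: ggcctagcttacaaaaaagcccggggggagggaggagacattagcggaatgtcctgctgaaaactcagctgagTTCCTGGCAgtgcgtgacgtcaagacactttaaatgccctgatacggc
Junb, chr8:84976493-84976613: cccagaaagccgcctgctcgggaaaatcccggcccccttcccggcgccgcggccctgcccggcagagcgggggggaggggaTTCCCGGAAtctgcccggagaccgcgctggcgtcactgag
Osmr, chr15:6874330-6874358: ggggcgggagTTACGGGAAagcgccgggg

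Next are windows of 8 gained loci drawn in the same way. The first 5 are among the strongest of the LIF list, at Rn7sk, Sbno2, Ell, upstream of Jak1 and at Tnfrsf1a. The others are at Il6st, which encodes gp130, upstream of the feedback inhibitor gene Socs3, and at Zfp36, an immediate early gene whose locus holds both motifs.
Rn7sk, chr9:78175372-78175492: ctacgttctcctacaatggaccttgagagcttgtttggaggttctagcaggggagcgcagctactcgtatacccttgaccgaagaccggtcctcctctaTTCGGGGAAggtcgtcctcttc
Sbno2, chr10:80075443-80075563: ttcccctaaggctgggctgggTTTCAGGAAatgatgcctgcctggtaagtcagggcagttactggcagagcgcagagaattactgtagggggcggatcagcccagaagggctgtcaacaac
Ell, chr8:70564868-70564988: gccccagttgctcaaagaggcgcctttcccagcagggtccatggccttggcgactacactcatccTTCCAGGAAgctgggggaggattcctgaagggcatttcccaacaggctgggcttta
Jak1, chr4:101292165-101292285: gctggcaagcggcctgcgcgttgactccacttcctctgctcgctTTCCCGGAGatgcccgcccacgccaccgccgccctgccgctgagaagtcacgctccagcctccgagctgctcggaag
Tnfrsf1a, chr6:125354817-125354937: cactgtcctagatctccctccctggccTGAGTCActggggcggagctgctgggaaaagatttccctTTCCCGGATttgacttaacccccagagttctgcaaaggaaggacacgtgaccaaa
Il6st, chr13:112463861-112463981: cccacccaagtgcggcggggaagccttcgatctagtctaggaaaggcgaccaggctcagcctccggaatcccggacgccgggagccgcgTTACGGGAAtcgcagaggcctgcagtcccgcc
Socs3, chr11:117975707-117975827: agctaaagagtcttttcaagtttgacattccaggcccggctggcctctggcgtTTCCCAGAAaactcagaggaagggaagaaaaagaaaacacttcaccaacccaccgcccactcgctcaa
Zfp36, chr7:28381180-28381300: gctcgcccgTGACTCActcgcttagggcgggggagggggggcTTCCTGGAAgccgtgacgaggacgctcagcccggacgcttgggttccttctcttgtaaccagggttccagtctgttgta

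The last pair are lost loci, the first and the third strongest summits of the basal list, on chromosomes 10 and 5. They are shown because they are nearly copies of each other, with the Rab28 window on the minus strand. Capitals here mark the longest stretch that the windows share, 34 bases.
Stxbp5, chr10:9987319-9987439: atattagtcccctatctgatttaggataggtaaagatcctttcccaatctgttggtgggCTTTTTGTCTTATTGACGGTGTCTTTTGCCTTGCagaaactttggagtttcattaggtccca
Rab28, chr5:41592437-41592557: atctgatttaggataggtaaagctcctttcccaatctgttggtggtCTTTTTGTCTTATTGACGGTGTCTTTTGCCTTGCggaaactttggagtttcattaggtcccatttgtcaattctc

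LIF and basal lists had almost no locus in common. Gained loci made up 99.7% of the LIF list (1085 of 1088, exact Clopper-Pearson 95% interval 99.2 to 99.9%), and lost loci made up 98.7% of the basal list (227 of 230, 96.2 to 99.7%). These intervals, like all others below, cover counting error only. The kept loci were 0.276% of the LIF list (0.0569 to 0.804%) and 1.30% of the basal list (0.270 to 3.76%). Apart from them and from a further LIF summit 2.28 kb from the basal summit at Junb, no LIF summit lay closer than 20.5 kb to a basal summit. The median lost locus lay 2.16 Mb from the nearest LIF summit, 6 lost loci were within 100 kb of one, and 4 were on chromosome Y, where the LIF list had none. When only the 230 highest-scoring LIF summits were taken, as many as the basal list holds, 227 of them were gained. This count was fixed by the ranks of the kept loci in the LIF list, which were 1, 2 and 5.

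**Figure D1:**
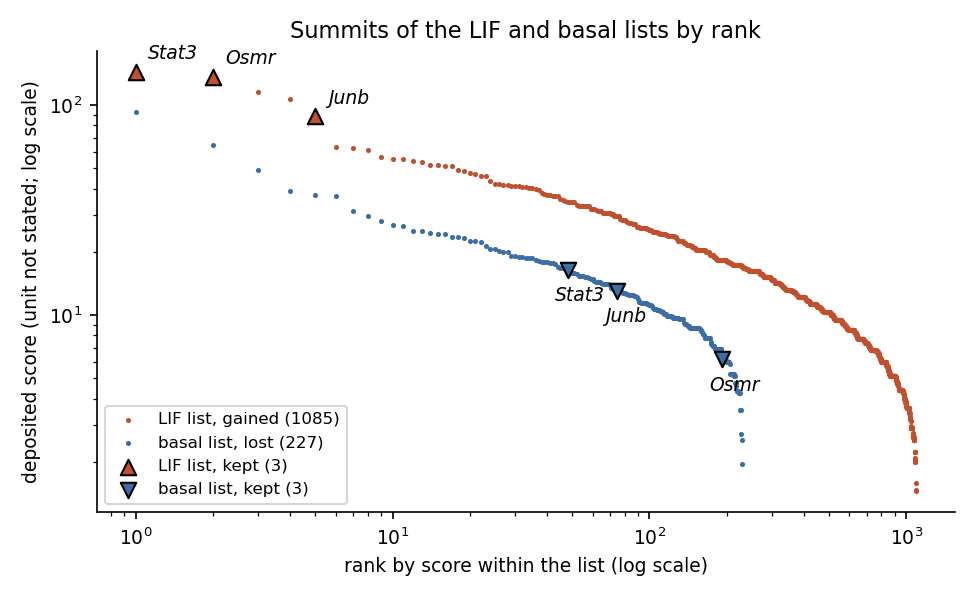
Deposited score against rank for the summits of the LIF list (red) and the basal list (blue), both axes on a log scale, with the kept loci as triangles. The kept loci, at Stat3, Osmr and Junb, held ranks 1, 2 and 5 of the LIF list and ranks 48, 191 and 75 of the basal list; scores of different lists are on scales that were not set equal.

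The kept loci were at Stat3 itself, at Osmr, which encodes a gp130 partner chain of the oncostatin M receptor, and at Junb, a subunit of AP-1. They held ranks 1, 2 and 5 by score in the LIF list and ranks 48, 191 and 75 in the basal list. At Stat3 (chromosome 11, 100885098 to 100939540, minus strand) the LIF summit was at 100939791, 0.251 kb upstream of the outermost start site, and the basal summit lay 33 bp from it. At Osmr (chromosome 15, 6813577 to 6874969, minus strand) the LIF summit was at 6874380, 0.589 kb downstream of the outermost start site, and the basal summit lay 21 bp from it. At Junb (chromosome 8, minus strand) the LIF summit was at 84976553 and the basal summit 23 bp away. This summit lay 0.011 kb from the start of a short non-coding Junb transcript in GENCODE, which made it a promoter locus by rule, but 0.356 kb beyond the 3′ end of the RefSeq gene (84976909 to 84978748) and 2.17 kb downstream of the coding start.

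The site sequences differed between the 3 kept loci. Junb had the consensus SIE TTCCCGGAA at 84976574 to 84976582, 25 bp from the LIF summit and 2 bp from the basal summit. Stat3 had TTCCTGGCA and Osmr TTACGGGAA, each with 1 mismatch, 17 and 36 bp from the LIF summit and 50 and 15 bp from the basal one. Osmr also had the AP-1 site TGAATCA at 6874304 to 6874310. Only 4 of the 230 basal summits had fewer than 50% of the bases within 80 bp masked as repeats, and the kept loci were 3 of them. The remaining one, in an intron of Gpam, an enzyme of triglyceride synthesis, was the lowest-scoring summit of the basal list (chromosome 19, 55120240) and was lost. The Stat3 locus was also in the list of peroxide-treated -/-WT cells, with a summit 5 bp away at rank 203, while at Osmr and Junb the nearest summits of that list were 3064 and 369 kb away.

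Gained and lost loci lay in different parts of the genome. Loci from 5 kb before to 0.5 kb after any GENCODE start site were called promoter loci, and the remaining ones exonic, intronic or intergenic. Of the 1085 gained loci, 418 were in promoters (38.5%, 35.6 to 41.5%), 344 in introns (31.7%), 304 intergenic (28.0%) and 19 in exons (1.75%). Of the 227 lost loci, 14 were in promoters (6.17%, 3.41 to 10.1%), 51 in introns (22.5%) and 1 in an exon, and the rest were intergenic (70.9%, 64.6 to 76.7%). The promoter share was larger in gained than in lost loci (Fisher's exact test, 2-sided and adjusted over 6 comparisons by the Benjamini-Hochberg method, adjusted p = 1.99e-25) and the intergenic share smaller (same exact test, adjusted p = 1.01e-32). These tests count loci, which are not replicates of a condition, and so they compare the 2 pooled lists and not the conditions.

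By distance, 506 gained loci (46.6%) and 21 lost loci (9.25%) lay within 5 kb of a start site (same exact test, adjusted p = 3.62e-29). The median distance to the nearest start site of a protein-coding gene was 13.9 kb for gained loci (interquartile range 1.00 to 55.1 kb) and 175 kb for lost loci (33.5 to 450 kb). Of the 227 lost loci, 0 were within 1 kb of a coding start site (a share of at most 1.32% by the limit of 3 counts), whereas 271 gained loci were (95% interval of the share 22.4 to 27.7%). More than 100 kb from any coding start site were 139 lost loci (61.2%) and 169 gained loci (15.6%). Gained loci were upstream of the nearest coding start site in 616 cases (56.8%, 53.8 to 59.7%), but 188 of these lay inside the annotated gene, before an internal start site, and 428 outside it. Only 3 of the 14 lost promoter loci were nearest to the start of a protein-coding gene, namely Lipi, Trpc5os and the odorant receptor gene Olfr346, and the rest were at pseudogenes and non-coding or immunoglobulin segments.

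**Figure D2:**
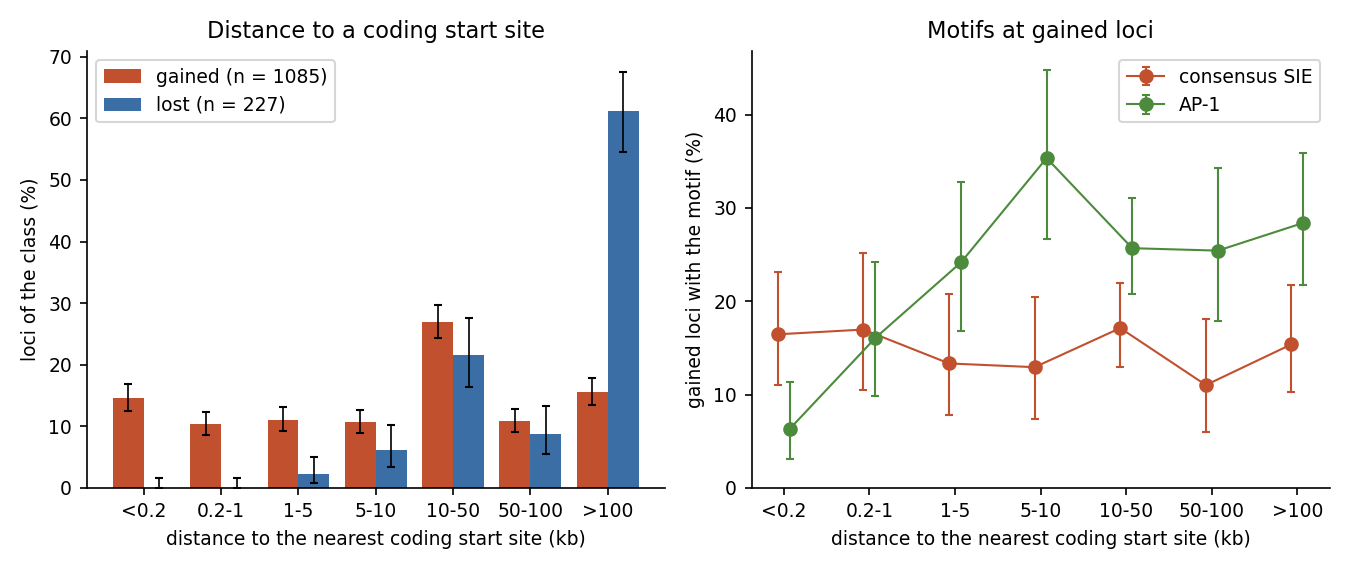
Left, share of gained (red, n = 1085) and lost loci (blue, n = 227) by distance to the nearest protein-coding start site in kb. Right, share of gained loci in the same distance classes with a consensus SIE or an AP-1 site within 80 bp; error bars are exact 95% binomial intervals, 61.2% of lost loci lay over 100 kb away, and the AP-1 share was lowest next to start sites (6.33%).

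Lost loci were almost without exception in repeats. At 226 of the 227 lost loci (99.6%, 97.6 to 100.0%) at least 50% of the bases within 80 bp of the summit were repeat-masked in the reference, against 33 of 1085 gained loci (3.04%, 2.10 to 4.25%; same exact test, adjusted p = 4.38e-216). All bases were masked at 225 lost loci, and none at 567 gained loci (52.3%). Lost loci also repeated each other: 217 of 227 (95.6%, 92.0 to 97.9%) shared a stretch of at least 24 bases with another lost locus on either strand, as the pair of sequences shown above does, against 15 of 1085 gained loci (1.38%, 0.776 to 2.27%). The study gives its read numbers as unique reads, without saying whether this means reads mapped to a single position or reads left after duplicates were removed. The part of reads that match several positions in the lost loci was not tested. The median GC content was 50.9% around gained summits and 39.8% around lost ones.

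The 10 highest-scoring lost loci were nearest to Stxbp5, Zkscan2, Rab28, Nek10, Nox3, Zfp619, Pcdh17, Cnga2, Ccser2 and Lipi, in this order. Their distances from a coding start site ran from 2.86 kb at Lipi to 892 kb at Pcdh17, a protocadherin gene. The strongest, at 9987379 on chromosome 10, was in an intron, 86.3 kb from a start site of Stxbp5. Of the 214 protein-coding genes nearest to a lost locus, 14 were also nearest to a gained locus, which is 6.54% of these genes and 1.60% of the 873 genes nearest to a gained locus.

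Motifs of Stat3 and AP-1 were found at gained but rarely at lost loci. The search took in both strands of the 80 bp on either side of a summit. A consensus SIE was at 165 gained loci (15.2%, 13.1 to 17.5%) and at 0 of 227 lost loci, which allows a share of up to 1.32% (same exact test, adjusted p = 3.40e-15). With up to 1 mismatch the counts were 722 (66.5%) and 12 (5.29%). The limit and the tests, like those above, take lost loci as independent, although 217 of the 227 shared a stretch with another. For comparison, the consensus was in 0.350% of 4284 windows of equal width 5 and 20 kb from the gained loci and in 0.709% of 32851 RefSeq promoters of mouse, in windows of that width ending 50 bases after the start. The AP-1 consensus was at 251 gained loci (23.1%, 20.7 to 25.8%) and 7 lost loci (3.08%, 1.25 to 6.25%; adjusted p = 3.40e-15 by the same exact test), against 5.02% of the windows beside gained loci and 4.24% of promoters. In 905 windows chosen beside lost loci in the same way the AP-1 share was 4.86%. An SIE with up to 1 mismatch was in 9.52% of windows beside gained loci, 6.96% beside lost loci and 9.97% of promoters. The looser palindrome TTCNNNGAA, which includes the consensus, was at 442 gained (40.7%) and 24 lost loci (10.6%). It was in 4.55% of the windows beside gained loci and 6.41% of those beside lost loci. Neither an AP-1 site nor an SIE with up to 1 mismatch was found at 264 gained loci (24.3%, 21.8 to 27.0%).

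Within the 80 bp searched on either side, consensus SIE sites lay closer to the summits than AP-1 sites did. The search window limits these distances, and none is given for background windows. The centre of the nearest SIE was a median of 20 bp from the summit of a gained locus (quartiles 10 and 32 bp), with 84 of 165 at most 20 bp away. For AP-1 the median was 31 bp (15 and 53.5 bp), with 90 of 251 that close. Read on either strand, 122 of the 165 sites were TTCCAGGAA or its complement TTCCTGGAA (73.9%), and 43 were TTCCCGGAA or TTCCGGGAA (26.1%), which hold a CpG. The form with a CpG was at 29 of 70 promoter loci with an SIE (41.4%, 29.8 to 53.8%) and at 14 of the 95 others (14.7%, 8.30 to 23.5%). Among RefSeq promoters with an SIE it made up 37.8%. Of the AP-1 sites, 191 were TGACTCA or TGAGTCA (76.1%) and 60 TGAATCA or TGATTCA.

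Within the gained loci, AP-1 sites were less frequent in promoters than elsewhere. They were at 65 of 418 promoter loci (15.6%, 12.2 to 19.4%) and at 186 of 667 others (27.9%, 24.5 to 31.5%; Fisher's exact test, 2-sided, adjusted p = 1.22e-05 over the 6 comparisons made within the gained loci). The share was 6.33% within 0.2 kb of a coding start site, 16.1% from 0.2 to 1 kb, 24.2% from 1 to 5 kb and 35.3% from 5 to 10 kb. It was lower again farther out, with 25.7% from 10 to 50 kb, 25.4% from 50 to 100 kb and 28.4% beyond. The median GC content was 57.1% at promoter loci and 47.2% at the others, and its part in the difference was not tested. By distance the GC content fell from 63.0% within 0.2 kb to 50.3% from 5 to 10 kb. It was 47.8% from 10 to 50 kb, 46.0% from 50 to 100 kb and 44.1% beyond. A consensus SIE was at 16.7% of promoter loci and 14.2% of the others, a difference of 2.50 percentage points that did not pass the test (same exact test, adjusted p = 0.297). Of the 165 loci with an SIE, 30 also had an AP-1 site (18.2%, 12.6 to 24.9%), against 221 of the 920 without (21.3 to 26.9%), which did not pass either (same exact test, adjusted p = 0.131).

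The SIE was more frequent at higher scores. Split at the median score, the consensus was at 102 of 535 loci above it (19.1%, 15.8 to 22.7%) and at 63 of 550 at or below it (11.5%, 8.92 to 14.4%; same exact test, adjusted p = 0.00154). In 5 score groups of equal size, from the highest to the lowest, the share with an SIE of up to 1 mismatch was 75.6, 71.9, 67.7, 60.8 and 56.7%. The consensus was at 39, 43, 39, 19 and 25 of the 217 loci in the same groups, and so did not fall from each group to the next. AP-1 sites were at 20.6% of the loci above the median score and 25.6% of the rest, and promoter loci made up 41.5% and 35.6%. Neither difference passed the test (same exact test, adjusted p = 0.0796 for each).

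**Figure D3:**
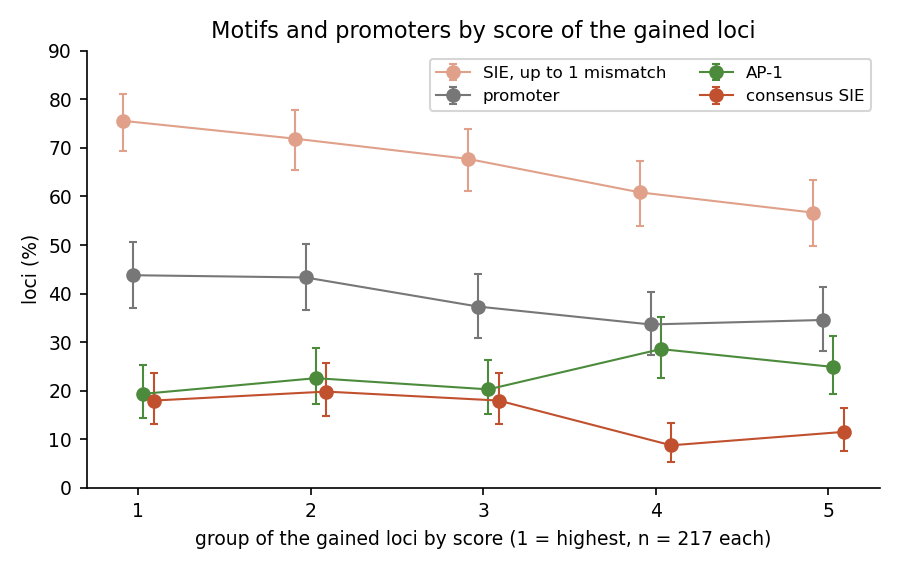
Share of gained loci in a promoter, with an AP-1 site, with a consensus SIE or with an SIE of up to 1 mismatch, in 5 groups by score (1 highest, 217 loci each); error bars are exact 95% binomial intervals. The share with an SIE of up to 1 mismatch went from 75.6% in the highest to 56.7% in the lowest group.

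The strongest gained locus was in Rn7sk (chromosome 9, 78175303 to 78175633), the gene of the 7SK RNA, which holds the elongation factor P-TEFb inactive. Its summit at 78175432 had rank 3 of the LIF list and a 1-mismatch site, TTCGGGGAA, 43 bp away. The nearest protein-coding start, of Gsta4, was 7.34 kb off. Copies of 7SK are known elsewhere in the genome, and reads could be shared with them. Rank 4 was at Sbno2, a transcriptional coregulator, 0.064 kb upstream of an internal start site, with the 1-mismatch site TTTCAGGAA. Rank 6 was in an intron of Ell, an elongation factor of RNA polymerase II, 9 bp from the consensus TTCCAGGAA. Rank 7 was at Csf1, the macrophage growth factor, 0.049 kb from a start site, with neither an SIE of up to 1 mismatch nor an AP-1 site. For the promoters of Stat3, Socs3, Junb and Csf1, the study reports basal Stat3 binding in -/-WT cells that decreased after peroxide. The SIE-like site at rank 10, 26.9 kb upstream of the coding start of Jak1, a kinase of the gp130 receptor, was TTCCCGGAG, 12 bp from the summit. At rank 11, the summit inside Tnfrsf1a, the TNF receptor 1 gene, had TTCCCGGAT 10 bp and an AP-1 site 30 bp from the summit.

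Among the 25 strongest gained loci, 10 were in promoters, 6 in introns and 9 intergenic, and 12 were more than 10 kb from a coding start site. The consensus SIE was at 6 of them, an SIE with up to 1 mismatch at 18 and an AP-1 site at 3. Those at or near transcription regulators were Arid5b (rank 12, 1.44 kb upstream of a start site), the NF-kB modulator Bcl3 (rank 18, inside the gene and 1.54 kb before an internal start site) and, at a distance of 529 kb, the heat shock factor gene Hsf2 (rank 14). Matrix and adhesion genes were Ltbp1, which stores TGF-beta in the matrix (rank 17, in an intron, 67.6 kb before an internal start site), the proteoglycan gene Lum (rank 22, 11.9 kb upstream), the laminin gene Lama4 (rank 24, 7.56 kb downstream) and the talin gene Tln2 (rank 26, inside the gene and 4.18 kb before an internal start site). At Lum the 1-mismatch site TTCTGGGAA was centred on the summit. Fth1, the ferritin heavy chain gene, was the nearest coding gene at rank 20 (33.4 kb away), where the consensus SIE and an AP-1 site were both present. The others were nearest to Gm6133, Tmem189, Azin1, A4galt, Atp23, Rnf150, Midn, Creld2, Dennd4b, Cirbp and the phosphatase gene Ppm1h, the last with rank 28 and a consensus SIE 26 bp from its summit.

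Some genes had several gained loci. The 1085 loci were nearest to 873 protein-coding genes, of which 722 had 1 locus, 110 had 2 and 41 had 3 or more, and these 41 held 143 loci (13.2%). Socs3 had the most, 7, all within 45.7 kb of its start site, of which 1 lay upstream. The strongest, with rank 47, was 0.062 kb downstream of the start, and the others had ranks from 130 to 994. All 7 had an SIE with up to 1 mismatch, none the consensus and 1 an AP-1 site. Osmr had 5 gained loci beside its kept one, between 37.8 and 97.0 kb upstream, with ranks from 98 to 1073. At Sbno2 there were 5 within 11.6 kb of a start site, 3 of them with the consensus SIE, and their ranks were 4, 147, 244, 309 and 468.

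Of the other genes with 4 or more, Lpp, a focal adhesion protein gene, had 6 loci up to 197 kb from a start site. Map4k3, a kinase gene, also had 6, of which 5 lay 43.7 to 67.3 kb upstream. Arid5b had 5, and Plec, which encodes a linker of the cytoskeleton, had 4 within 2.08 kb of its start sites. All 4 loci of Cxcl5, a neutrophil chemokine gene, were upstream, within 8.71 kb. Ptpn1, whose product dephosphorylates Jak2, had 1 locus 6.70 kb upstream and 3 from 97.3 to 115 kb upstream. Cited2 had 1 at its start site and 3 from 1102 to 1215 kb upstream, where it was the nearest coding gene without being close. Among the genes with 3 loci were Irf1, Cebpd, Fosl2, Nfkbiz, Litaf, Tgfbr3, Zfp36l1, Zfp36l2 and the connexin gene Gja1, each with at least 1 within 50 kb of a start site. Myc and Cxcl12 also had 3, the closest 62.1 and 104 kb away. The remaining genes with 3 were 2410131K14Rik, Auh, Bank1, Bicc1, Cyp7b1, Efna5, Fam43a, Glis3, Gse1, H60c, Irf2bpl, N6amt1, Rarg, Slc14a2, Susd1, Tcf4, Tmem189, Trps1, Utrn and Wac.

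**Figure D4:**
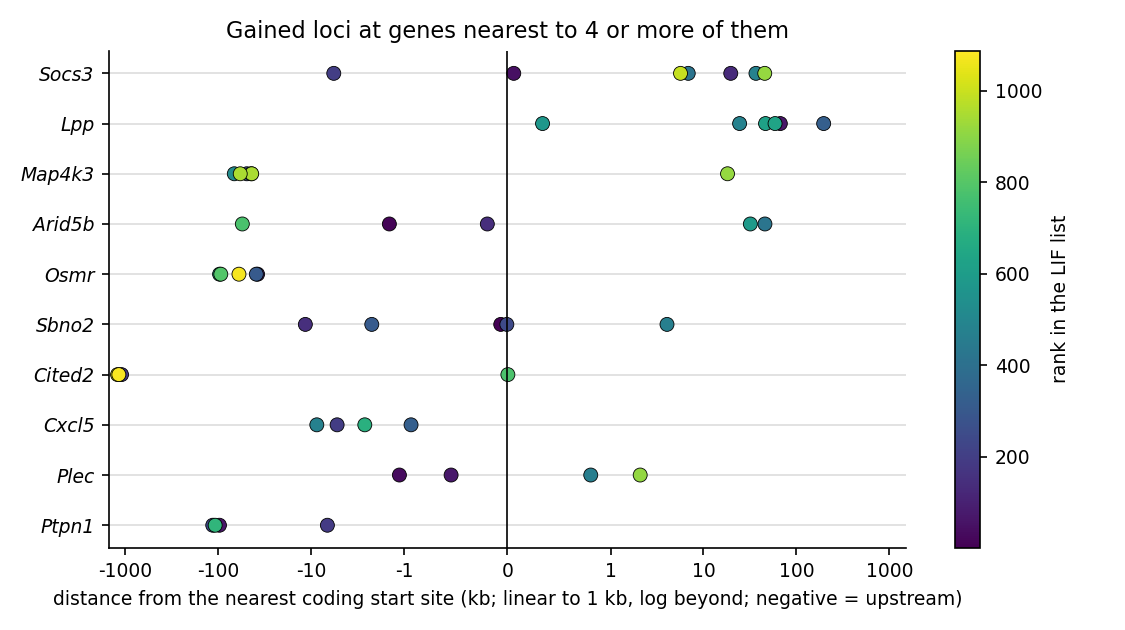
Position of gained loci relative to the nearest coding start site (x axis in kb, linear to 1 kb and logarithmic beyond, negative values upstream) for the 10 genes nearest to 4 or more; each point is a locus, coloured by its rank in the LIF list. Socs3 had 7 loci, of which 6 were downstream of its start, while the 5 gained loci of Osmr and the 4 of Cxcl5 were all upstream.

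Genes of the pathway itself were described by lists. Over all 21938 protein-coding genes, 353 (1.61%) had a gained locus in the promoter window and 589 (2.68%) within 10 kb of a start site, and these shares stand beside each list below as a description. Of 11 genes of Jak kinases and Stat factors, 8 had a gained locus within 10 kb and 5 in the promoter window. The promoter loci were at Jak2 (rank 589), Jak3 (rank 206), Stat2 (rank 266), Stat5a (ranks 426 and 844) and Irf9, the Stat partner of the interferon response (rank 449). The Stat5a loci were counted for the neighbouring gene Stat5b as well, 7.84 and 8.7 kb upstream of a start site. Stat4 was counted through a locus 8.41 kb downstream of a start site (rank 90). The locus counted for Stat6 (rank 1042), 8.5 kb downstream of a start site, was among the weakest, and Tyk2 had none. Stat3 had its kept locus instead.

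Ligands and receptors of the IL-6 family had fewer. Of 13 genes, 1 had a gained locus within 10 kb: Il6st, which encodes gp130, had it 0.149 kb upstream of its start (rank 128), with the site TTACGGGAA 33 bp from the summit. The same 9 letters were at the kept locus of Osmr. None was found within 10 kb of Lif, Il6, Lifr or Il6ra, nor of Osmr beyond the kept one. Of 16 inhibitors of Jak-Stat signalling, 4 had a promoter locus, all in the Socs family: Socs3, Cish (rank 170), Socs1 (rank 634) and Socs2 (rank 729), with the consensus SIE at Cish and Socs2. The phosphatase gene Ptpn1 was the only other one within 10 kb, while no Pias gene had a locus there.

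Among 18 AP-1 and immediate early genes, 6 had a gained locus within 10 kb and 4 in the promoter window. Junb had its second LIF summit at 84978853 (rank 51), 0.135 kb upstream of the coding start. Fosl2 had 3 loci within 3.73 kb, with ranks 138, 238 and 241. Zfp36, which destabilises cytokine mRNAs (rank 287), had a consensus SIE and an AP-1 site, and Maff (rank 582) a consensus SIE. Ier2 and Ier3 had a locus 1.19 and 8.28 kb from a start site, and Jun, Fos, Egr1 and Atf3 had none. Of 18 transcription regulators known as Stat3 targets, 6 had a promoter locus: Sbno2, Bcl3, Cebpd (rank 121), Nfkbiz (rank 168), Irf1 (rank 597) and Bcl6 (rank 790). Irf1 also had 2 loci with a consensus SIE 6.45 and 7.01 kb upstream. Myc, Cebpb, Klf4 and Hif1a were among the 12 without one.

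In 17 survival and growth genes, 4 had a gained locus within 10 kb, namely Gadd45b (rank 87) and Pim1 (rank 608) in the promoter window and Pim3 (rank 36) and Gadd45g (rank 282) 2.75 kb downstream of a start site. Pim1 was also the nearest coding gene to a stronger locus (rank 52), 20.7 kb upstream and so outside the 10 kb limit. Mcl1, Bcl2l1 and the cyclin D genes had none. Among 18 cytokine, chemokine and acute phase genes, the promoter loci were at Csf1, Cxcl1 (rank 197) and Ccl7 (rank 532), and the last also lay 8.17 kb from a start of Ccl2. Of 14 genes of 7SK and transcription elongation, Rn7sk was the only one with a locus within 10 kb, since that of Ell lay 25.2 kb inside the gene. Fibroblast identity and matrix genes had 2 of 18, at Fn1 (fibronectin, rank 842) and Lox (lysyl oxidase, rank 188). The 10 embryonic stem cell regulators, among them Pou5f1, Nanog and Esrrb, had 0, as had the 16 markers of blood, epithelial, endothelial and neural cells.

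The gained loci were spread unevenly over the chromosomes. Chromosome 10 held 128 and chromosome 15 held 95, or 0.979 and 0.913 per Mb, against 0.398 per Mb over all chromosomes. Together these chromosomes held 20.6% of the gained loci, with 8.61% of the length and 8.23% of the protein-coding genes. Of the lost loci, 14 were on these chromosomes (6.17%). Relative to their genes, chromosome 10 had 12.5, chromosome 15 had 12.1 and chromosome 18 had 11.1 gained loci per 100 protein-coding genes. Chromosomes 3 and 16 had 8.86 and 8.13, chromosomes 7 and 14 had 1.88 each, and chromosome X had 0.738. The lowest densities of gained loci were on chromosomes Y (0), X (0.0409 per Mb), 14 (0.136) and 1 (0.164). Gained loci on chromosomes 10 and 15 had a median score of 8.91 against 9.44 elsewhere, a consensus SIE in 16.6% against 14.8%, and a promoter share of 38.1% against 38.6%. Of the 25 strongest gained loci, 12 were on these chromosomes.

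**Figure D5:**
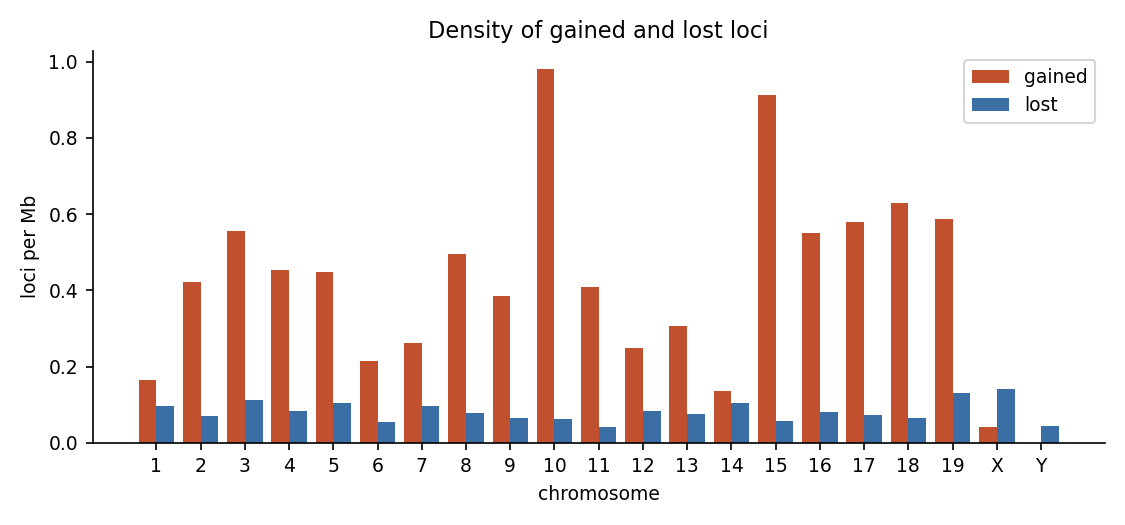
Gained (red) and lost (blue) loci per Mb of each chromosome. Gained loci were densest on chromosomes 10 (0.979 per Mb) and 15 (0.913 per Mb), where lost loci had 0.0612 and 0.0577 per Mb.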

How the data were processed

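The deposited files are lists of ChIP-seq summits, 1 for each condition, with a position in mm10 and a score per summit. Per the labels and the study's methods, the authors sequenced 2 ChIP replicates per condition, mapped the reads to mm10, called peaks on both replicates together and retained peaks above the IgG control. The submitters' processing notes name HISAT2, Picard and MACS2, with versions not given in the sources used here. The deposited score has no stated unit and was used only to rank summits within a list. Input and IgG libraries and read depth were not analysed here.

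Positions were read against GRCm38.p6, whose coordinates mm10 shares, with GENCODE M21 start sites, exons and UTRs. RefSeq promoter sequences of the same build served as a background for motifs. LIF and basal summits within 200 bp counted as shared. Motifs were matched within 80 bp of a summit on both strands, and overlapping motifs were all counted. Repeat content was read from lower-case bases of the reference. A count of 0 was given the limit that 3 counts allow. Shares carry exact Clopper-Pearson 95% intervals and were compared by 2-sided Fisher's exact tests, adjusted by the Benjamini-Hochberg method in 2 families of 6. The functions were tested on simulated data with planted overlaps and motifs. Python 3.11.15, NumPy 2.4.6, SciPy 1.17.1, pandas 2.3.3, pysam 0.24.0 and matplotlib 3.10.9 were used.

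The loci, gene lists, motifs and tests were chosen with earlier results of these data known, and the form of the SIE, shared stretches and chromosome densities were looked at after the values were seen. Genes were named at the 25 highest-scoring gained, all kept and the 10 highest-scoring lost loci, at 3 or more gained loci, and from 11 lists: IL-6 family ligands and receptors, Jak kinases and Stat factors, inhibitors of Jak-Stat signalling, AP-1 and immediate early genes, transcription regulators, survival and growth genes, cytokines and chemokines, 7SK and elongation genes, fibroblast genes, embryonic stem cell regulators and markers of other cells. Of these lists, 2 genes are not reported here and were left out of the counts. Alternatives were other distances, windows, promoter definitions, start sites, score limits, mismatches, chromosomes and merging of summits.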

Additional observations from a re-analysis of the deposited data

How the results depend on the processing

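No paired analysis was possible because the replicates of each condition were pooled into 1 list before peak calling, and for the same reason no replicate could be left out. Of 66 alternative values for 16 results, 62 kept their direction and their side of the threshold or stayed within the counting interval. Some of the 62 could not differ from the main value. The limit to chromosomes 1 to 19, X and Y removed no locus, and distances of 100, 500 and 1000 bp left the same loci in each class. The gained share was 98.7% when the LIF list was cut to the 230 highest-scoring summits, which by construction keeps the kept loci in a shorter list. The share of protein-coding genes with a gained locus was 2.68% within 10 kb of a start site and 0.848% for gained loci above the median score, against 1.61%, as these count wider windows or fewer loci. The difference in SIE share between promoter and other gained loci was 2.50 percentage points with the consensus and -0.838 with up to 1 mismatch (same exact test, adjusted p = 0.792), and the cause was not tested. Shared distances of 100, 500 and 1000 bp gave the same kept loci in number, and 5000 bp added the second Junb summit. The files hold no read depth behind a summit, which limits how many loci could be called, and the study states more unique reads for the LIF libraries, so that the lists were not made at equal depth.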

Other observations

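Lost loci were found again in lists of other conditions, and gained loci hardly were. Of the 227 lost loci, 106 had a summit within 200 bp in the list of peroxide-treated -/-WT cells (46.7%, exact 95% interval 40.1 to 53.4%), 53 in that of peroxide-treated -/-C3S cells (23.3%) and 43 in that of basal -/-C3S cells (18.9%), which express a Stat3 with cysteines substituted. These lists held 450, 223 and 145 summits in the same order, so the 3 shares are not comparable as measures of genotype or treatment. In at least 1 of these lists were 131 (57.7%, 51.0 to 64.2%), and 17 (7.49%) were in all of them. Of the 1085 gained loci, 2 were in at least 1 (0.184%, 0.0223 to 0.664%). The first, in an intron of Camk2b on chromosome 11 at 6006427 (rank 724), was in all of them and had 100% of its bases masked as repeats. The second, on chromosome 8 at 19784614 (rank 585), was 0.132 kb from a start of the predicted gene Gm10060.

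Of the gained loci, 33 had at least 50% of their bases repeat-masked, and 4 had all.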
